A study of Mus musculus with 4 samples.

Results

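The 34 genes described here are hypoxia-inducible genes that lie outside glycolysis, among 55401 genes in the count table. They were chosen by name, as genes known to be induced by low oxygen, and with earlier results of these data known. All 34 symbols were found in the table, 33 had enough reads to be tested, and the lysyl oxidase gene Lox did not. RNA came from R1 cells, a line of mouse embryonic stem cells, in 2 groups of 2 libraries. The control cells were labelled WT and the other group, the knockout libraries, was labelled Usp28 KO, after a deubiquitinase gene. All 4 libraries came from cells in 2i/LIF on 0.2% gelatin: N2B27 medium with the cytokine LIF (10 ng/ml), PD0325901 (1 μM), which blocks the kinase MEK, and CHIR99021 (3 μM), which blocks GSK3. No library was labelled as grown in low oxygen. Whether the knockout is 1 clone, and whether replicates are separate cultures, is not given in the labels. A p-value therefore reflects the spread among these 4 libraries, which may be technical.

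Cells sense oxygen through the hypoxia-inducible factors (HIFs). The prolyl hydroxylases EGLN1, EGLN2 and EGLN3 use oxygen to mark the HIF alpha subunits, and the VHL ubiquitin ligase then sends the marked subunits for degradation. When oxygen is short, the alpha subunit persists, pairs with ARNT and binds a short core sequence, ACGTG or GCGTG, near its target genes. The targets bring in blood vessels, remove mitochondria, buffer acid, build collagen and feed back on the response itself.

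The libraries held 16595196 to 19533608 counts. Usp28 itself stood at 189 and 197 CPM (counts-per-million, on TMM-scaled totals) in the control libraries and 181.5 and 177 CPM in the knockout libraries (log2 fold change of -0.11 ± 0.15), so the gene-level count did not check the label. All 10 markers of embryonic stem cells were detected in every library, with summed levels of 6194 and 6467 CPM in control and 6126 and 6284 CPM in knockout libraries. The sum hides unequal markers. Tfcp2l1 stood at 998.5 and 994 CPM in control and 680 and 693.5 CPM in knockout libraries (-0.54 ± 0.17; edgeR, adjusted p = 0.250), Zfp42 was also lower in each knockout library (-0.33 ± 0.17), and Tdgf1 was higher in each (0.40 ± 0.19). Of 10 fibroblast or feeder markers, the defining genes Postn and Twist2 were at 0 in all 4 libraries and Col1a1, Col1a2 and Col3a1 were each under 0.4 CPM. That list summed to 376 and 308 CPM in control and 272 and 297 CPM in knockout libraries, of which Vim alone gave 372 and 302, then 266 and 287 CPM. The other 3 tested genes of the list had log2 fold changes above 0: Pdgfrb 0.68 ± 0.33, Fbln2 0.84 ± 0.55 and Thy1 0.42 ± 0.60. None of the 4 had an unadjusted edgeR p under 0.05. Of 6 neural markers 5 were tested, and they summed to 135 and 99.7 CPM in control and 144 and 133 CPM in knockout libraries. Nes, the intermediate filament gene nestin, was higher within that list, at 19.1 and 21.7 CPM in control and 53.8 and 43.9 CPM in knockout libraries (DESeq2, adjusted p = 4.33e-05). By edgeR, 0 of 15341 genes tested were higher at an adjusted p under 0.05, so Nes did not pass that test. Endoderm markers summed to 8.76 to 12.95 CPM and mesoderm markers to 15.3 to 22.4 CPM over the 4 libraries. The part of such cells in the results was not tested. The libraries differed in how expression followed the GC content of transcripts. The rank correlation across genes of a library's level, relative to the others, with GC content was 0.0127 and -0.381 in control and 0.0444 and 0.372 in knockout libraries. Levels in bulk RNA cannot tell more cells of a kind from more RNA per cell.

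Most of the hypoxia-inducible genes stood higher in the libraries labelled Usp28 KO, but no single one passed the main test. By edgeR, 0 of 33 members were higher and 0 were lower at an adjusted p under 0.05, where 0% of all 15341 genes tested were higher and 0% lower. At an unadjusted p under 0.05, 15 members were higher, against 6.86% of all genes, and 2 were lower, against 4.34%. The log2 fold change (Usp28 KO minus control) was above 0 for 28 members and for 49.4% of all genes. Its median was 0.42 over the 33 members and -0.0040 over all genes tested. The members were chosen with earlier results of these data known, so such counts describe the list and do not test it. The groups did not overlap for 25 members, 22 of them higher in Usp28 KO and 3 lower, where 21.4% and 20.4% of all genes separated in these directions. The count of 15 was 7 without control replicate 1, where 4.98% of all genes were higher, and 16 without control replicate 2, where 5.5% were. It was 18 without Usp28 KO replicate 1, where 5.6% of all genes were higher, and 10 without Usp28 KO replicate 2, where 6.03% were.

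By DESeq2, 4 members rose and 0 fell at an adjusted p under 0.05, where 0.578% of genes with an adjusted p were higher and 0.351% lower. These were Ndrg1, P4ha2, Vegfa and Fam162a, and all 4 had a higher value in each Usp28 KO library than in either control library. Of all genes tested, 21.4% separated this way. The 4 were picked by a test on the same libraries, so neither this separation nor the margins given below add support. Ndrg1 (N-myc downstream regulated gene 1, a stress and differentiation gene) stood at 61.5 and 89.2 CPM in control and at 128 and 176 CPM in knockout libraries (DESeq2, adjusted p = 0.00569). P4ha2, which encodes a catalytic alpha subunit of collagen prolyl 4-hydroxylase, stood at 9.98 and 15.3 CPM in control and at 26.5 and 27.0 CPM in knockout libraries (DESeq2, adjusted p = 0.0129). The highest control value of each gene was below the lowest Usp28 KO value by a margin wider than the gap between the 2 control libraries. Their edgeR log2 fold changes were 1.01 ± 0.21 and 1.09 ± 0.23 (edgeR, adjusted p = 0.102 and 0.114).

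**Figure D1:**
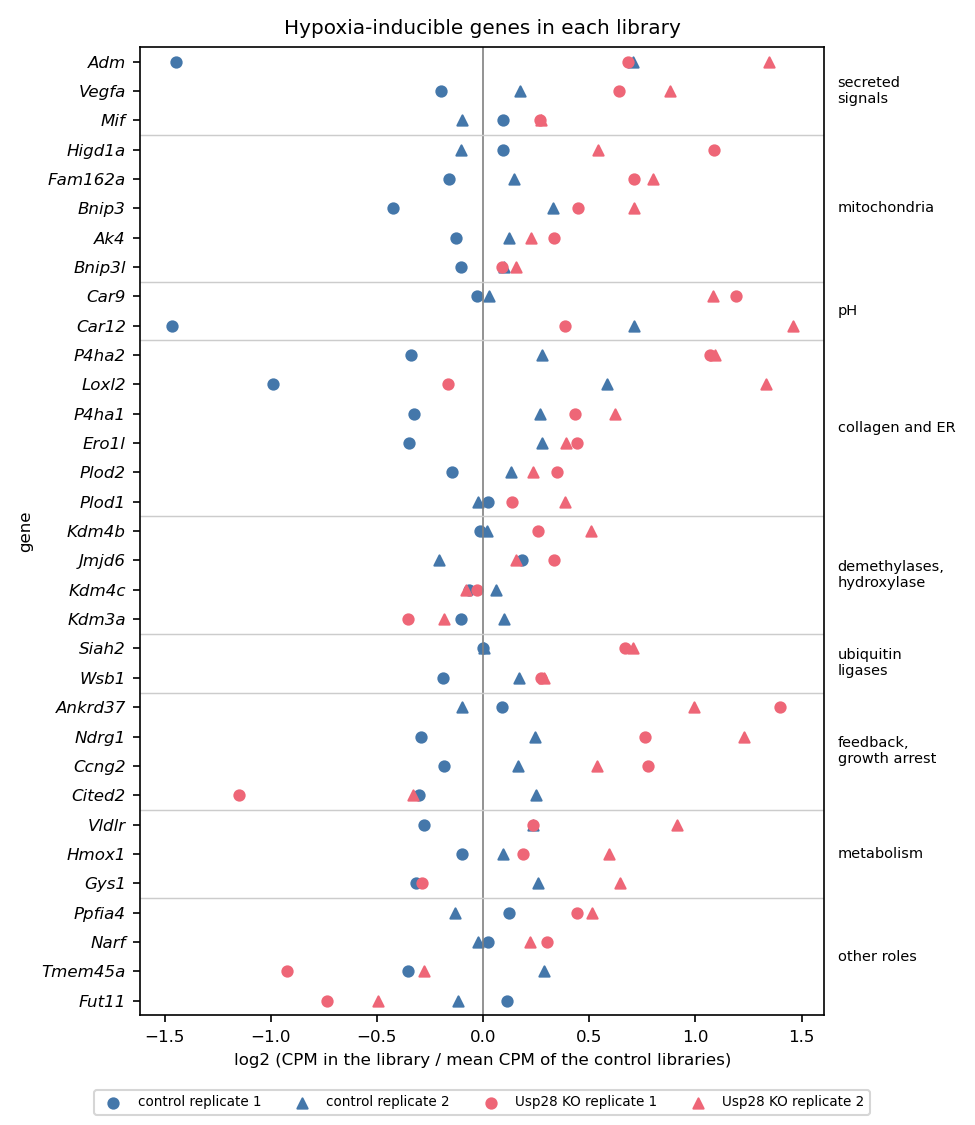
Level of each tested gene in each of the 4 libraries, as the log2 ratio of its CPM to the mean of the control libraries (x axis), with genes grouped by role (y axis). Circles are replicate 1 and triangles replicate 2 of control (blue) and Usp28 KO (red). In 22 rows both red points lie to the right of both blue points, and in 3 rows (Kdm3a, Cited2 and Fut11) both lie to the left.

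The 250 bases before the gene start are shown for members with the smallest edgeR p values, because these genes had the clearest differences and the HIF core can be looked for there. Sequences come from RefSeq (GRCm38.p6, a patch release of the mm10 assembly), run 5′ to 3′ on the gene's strand, and leave out bases in annotated exons. Capitals mark ACGTG or GCGTG on either strand, so a match on the other strand reads CACGT or CACGC. Starts are those of RefSeq. The gene bodies of P4ha2 and Ankrd37 in GENCODE M21 begin farther upstream, so for these 2 genes the stretch lies inside the longer gene model. The stretches are chr11:54100674-54100923 (plus strand), chr17:46032378-46032627 (minus strand), chr16:36071595-36071684 (minus strand) and chr8:45999868-46000100 (minus strand).
P4ha2: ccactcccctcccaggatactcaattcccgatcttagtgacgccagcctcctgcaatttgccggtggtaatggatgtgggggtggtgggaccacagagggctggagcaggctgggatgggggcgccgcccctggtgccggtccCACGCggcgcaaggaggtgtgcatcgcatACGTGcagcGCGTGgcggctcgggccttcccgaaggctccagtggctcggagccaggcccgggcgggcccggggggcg
Vegfa: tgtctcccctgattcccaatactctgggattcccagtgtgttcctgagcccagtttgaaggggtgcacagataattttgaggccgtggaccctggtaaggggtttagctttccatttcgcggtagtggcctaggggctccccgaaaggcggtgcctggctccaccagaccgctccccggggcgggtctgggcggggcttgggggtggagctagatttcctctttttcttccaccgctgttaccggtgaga
Fam162a: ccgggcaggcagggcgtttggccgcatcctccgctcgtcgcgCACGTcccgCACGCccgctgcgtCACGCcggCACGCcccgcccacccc
Ankrd37: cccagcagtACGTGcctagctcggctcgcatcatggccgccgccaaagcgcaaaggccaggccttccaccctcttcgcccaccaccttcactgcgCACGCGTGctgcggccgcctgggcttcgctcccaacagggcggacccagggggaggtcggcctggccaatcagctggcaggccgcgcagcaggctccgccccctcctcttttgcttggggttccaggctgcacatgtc
The P4ha2 stretch held 3 matches, which began 107, 78 and 69 bases before the start. Fam162a had 4 matches between 81 and 50 bases before its start, and Ankrd37 had 2 separate sites in the stretch shown, where overlapping matches count as 1 site. The Vegfa stretch held none, which says only that these letters are not in this window.

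A promoter entry was found for 26 of the 34 members, with Ero1l under its current name Ero1a. Entries were missing for Bnip3l, Lox, Loxl2, Plod2, Kdm4b, Siah2, Ndrg1 and Hmox1. In the 250 bases before the start, 11 of 26 members (42.3%) held ACGTG on either strand, against 21.8% of the 10605 tested genes with an entry and 16.5% of all 27025 genes with an entry. For GCGTG the shares were 69.2%, 45.8% and 28.3%, and for either core 76.9%, 57.0% and 38.6%. The members were chosen as genes known to be induced by low oxygen, so these shares describe the list and not the knockout. Bnip3 held 4 sites of either core, Wsb1 also 4, and Fam162a 6. Members with at least 1 site included Kdm3a, Cited2 and Fut11, which were lower in knockout libraries. The members with none were Vegfa, Vldlr, Mif, Car12, Gys1 and Kdm4c. Vegfa, Vldlr and Mif were higher in each knockout library, though the Mif log2 fold change was 0.0016 with GC offsets. The groups overlapped for Car12, Gys1 and Kdm4c. Of the 11 members with an entry that were higher at an unadjusted p under 0.05, 7 (63.6%) held ACGTG, and of the 15 others 4 (26.7%) did. For GCGTG the shares were 72.7% and 66.7%, and for either core 81.8% and 73.3%. The split was not tested. These stretches had a median GC content of 67.6% in the 11 and 59.6% in the 15.

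Among the secreted signals, Vegfa and Mif separated the groups and Adm did not. Vegfa (chromosome 17, 46016993 to 46032369) encodes the growth factor that draws in blood vessels. It stood at 79.6 and 103 CPM in control and at 142 and 168 CPM in knockout libraries. The log2 fold change was 0.76 ± 0.18 (edgeR, adjusted p = 0.127; DESeq2, adjusted p = 0.0274). Each Usp28 KO library was above each control library. Adm, which encodes the vasodilator peptide adrenomedullin, was scarce, at 1.18 and 5.23 CPM in control and 5.14 and 8.16 CPM in knockout libraries. Its control replicate 2 and Usp28 KO replicate 1 were alike, so the groups overlapped. The Adm log2 fold change of 1.08 ± 0.57 was 2.48 without control replicate 2 and was as low as 0.34 with another library left out. Mif, the cytokine macrophage migration inhibitory factor, was the most abundant member per kilobase of exon, at 871 CPM per kilobase. It stood at 627 and 549.5 CPM in control and 708 and 710.3 CPM in knockout libraries. The groups did not overlap, but the log2 fold change of 0.27 ± 0.17 was 0.0016 after the GC trend of each library was taken up.

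Of 5 genes that act at mitochondria, 0 passed edgeR after adjustment and 1, Fam162a, rose by DESeq2. The groups were separate, with the knockout libraries higher, for 4 of them, where 21.4% of all genes tested separated this way. The groups overlapped for Bnip3l. Fam162a, a mitochondrial protein gene tied to cell death under low oxygen, stood at 37.2 and 46.1 CPM in control and 68.1 and 72.4 CPM in knockout libraries (log2 fold change 0.76 ± 0.18; DESeq2, adjusted p = 0.0338). Higd1a, which encodes an inner membrane protein that binds respiratory complexes, stood at 24.7 and 21.5 CPM in control and 49.0 and 33.6 CPM in knockout libraries (0.84 ± 0.22; DESeq2, adjusted p = 0.0654). In both genes the groups did not overlap, and the knockout libraries lay closer together for Fam162a than for Higd1a. The mitophagy receptor gene Bnip3 stood at 83.0 and 140 CPM in control and 151.5 and 182 CPM in knockout libraries. Its control libraries differed more than the neighbouring libraries of the 2 groups did, and its log2 fold change of 0.58 ± 0.23 ran from 0.25 to 1.00 when a library was left out.

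Bnip3l, the paralog of Bnip3 with the same role in mitophagy, was at 87.9 and 101 CPM in control and 100.3 and 105 CPM in knockout libraries, with overlapping groups. The Bnip3l log2 fold change was 0.12 ± 0.16, and 0.21 with the GC correction. Ak4, a mitochondrial adenylate kinase gene, was at 117 and 139 CPM in control and 161 and 149 CPM in knockout libraries (0.28 ± 0.16). Of these 5 genes, 3 were higher at an unadjusted p under 0.05 by edgeR, against 6.86% of all genes, and 1 by DESeq2, against 0.578%.

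**Figure D2:**
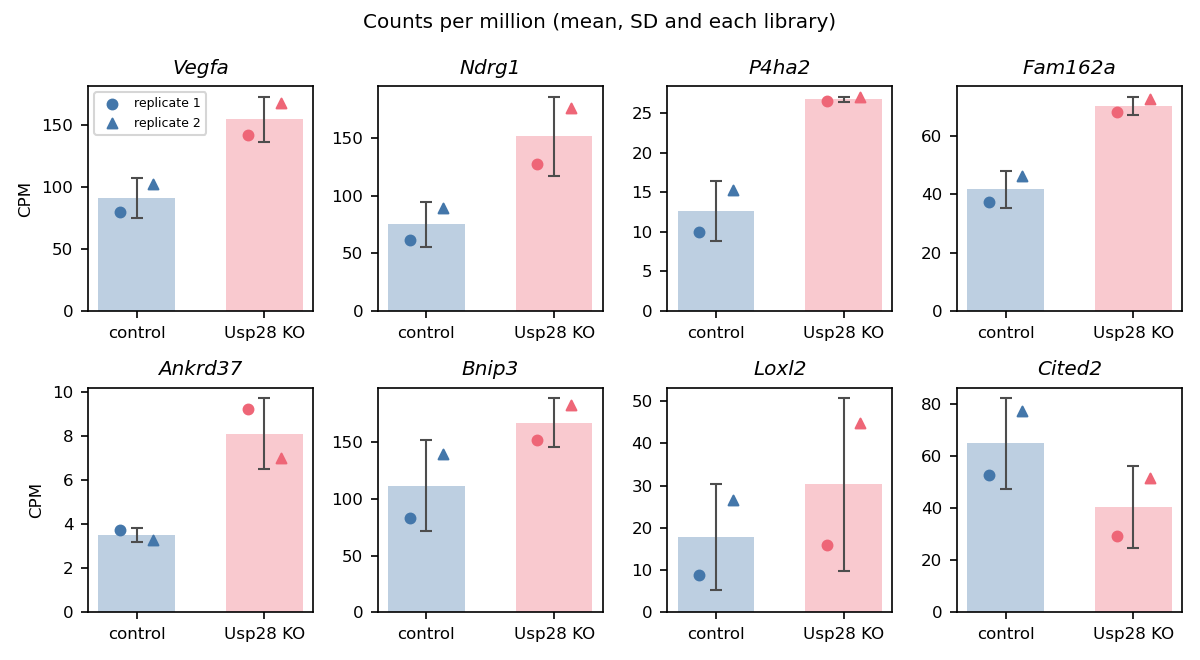
Counts-per-million (y axis, linear from 0) of 8 members in control and Usp28 KO libraries (x axis). Bars are means and error bars the SD of 2 libraries, with replicate 1 as a circle and replicate 2 as a triangle. Ndrg1, P4ha2, Vegfa, Fam162a, Ankrd37 and Bnip3 have both Usp28 KO points above both control points, Cited2 has both below, and Loxl2 overlaps with replicate 2 high in each group.

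The pH-regulating carbonic anhydrase genes were near the low end of detection. Car9, a surface enzyme often used as a marker of low oxygen, had 13 counts in control replicate 1 and 29 in Usp28 KO replicate 1. Its levels were 0.665 and 0.694 CPM in control and 1.55 and 1.44 CPM in knockout libraries, a log2 fold change of 1.13 ± 0.47 with groups that did not overlap. It had the lowest level of the 33 members, at 0.472 CPM per kilobase. Car12, a second surface carbonic anhydrase, ranged from 1.59 to 7.19 CPM in control and from 5.72 to 12.1 CPM in knockout libraries. Those groups overlapped, and the Car12 log2 fold change of 1.04 ± 0.73 ran from 0.31 to 2.47 when a library was left out.

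All 6 tested genes of collagen modification and oxidative folding had log2 fold changes above 0, as had 49.4% of all genes tested. By DESeq2, 1 of them, P4ha2, rose at an adjusted p under 0.05, against 0.578% of genes with an adjusted p. P4ha1 encodes the other common catalytic subunit of collagen prolyl 4-hydroxylase. It was more abundant than P4ha2, at 24.3 against 3.16 CPM per kilobase, and stood at 65.4 and 98.6 CPM in control and 110.5 and 126 CPM in knockout libraries. The groups were separate for both subunits, and the log2 fold change was 0.53 ± 0.20 for P4ha1 and 1.09 ± 0.23 for P4ha2. Whether these 2 changes differ was not tested. Ero1l, which encodes the oxidase that drives disulfide formation in the endoplasmic reticulum, stood at 80.9 and 125 CPM in control and 140 and 135 CPM in knockout libraries (0.42 ± 0.20). Its value in control replicate 2 was close to both Usp28 KO libraries, and its log2 fold change was as low as 0.13 with a library left out.

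The lysyl hydroxylase genes Plod2 and Plod1, whose products modify collagen lysines for cross-linking, had log2 fold changes of 0.29 ± 0.17 and 0.27 ± 0.19. Their ranges were 80.3 to 97.4 CPM in control and 105 to 113 CPM in knockout libraries for Plod2, and 28.8 to 29.8 CPM and 32.2 to 38.4 CPM for Plod1. Loxl2, a lysyl oxidase that cross-links collagen outside the cell, stood at 8.96 and 26.6 CPM in control and 15.8 and 44.7 CPM in knockout libraries. Replicate 2 was the higher library in each group, the groups overlapped, and the Loxl2 log2 fold change of 0.78 ± 0.79 was -0.16 without Usp28 KO replicate 2. Lox itself was not tested, with 0 counts in control replicate 1 and 1 in Usp28 KO replicate 1, and its highest value was 0.213 CPM.

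The oxygen-dependent demethylase and hydroxylase genes did not move together. Kdm3a, a histone H3 lysine 9 demethylase, was at 307 and 352 CPM in control and 258 and 290 CPM in knockout libraries. Each Usp28 KO value was below each control value, with a log2 fold change of -0.27 ± 0.17. Kdm4b, another histone demethylase, was at 73.3 and 75.04 CPM in control and 88.6 and 105 CPM in knockout libraries, and its log2 fold change was 0.39 ± 0.16, or 0.17 with the GC correction. The related Kdm4c stood at 126 and 137 CPM in control and 129 and 124 CPM in knockout libraries. Its log2 fold change of -0.054 ± 0.15 lay within its standard error and turned to 0.0039 with upper-quartile scaling and 0.0096 with library totals. Jmjd6, a lysyl hydroxylase gene of the same enzyme class, differed by 0.25 ± 0.18 with overlapping groups.

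Both ubiquitin ligase genes were higher in each Usp28 KO library than in each control library, as were 21.4% of all genes tested. Siah2, whose product destabilises prolyl hydroxylases, stood at 5.78 and 5.80 CPM in control and 9.20 and 9.44 CPM in knockout libraries. Replicates were close together in each group, and the log2 fold change was 0.69 ± 0.25 (edgeR, adjusted p = 0.326), or 0.50 with the GC correction. Wsb1, a substrate receptor of a cullin ligase, was at 173 and 222 CPM in control and 239 and 241.5 CPM in knockout libraries (0.28 ± 0.17).

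Genes of feedback and growth arrest included the widest differences in each direction. Ankrd37, a small ankyrin repeat protein gene and a sensitive HIF target, stood at 3.74 and 3.28 CPM in control and 9.26 and 6.99 CPM in knockout libraries. The groups were well apart, and its log2 fold change of 1.21 ± 0.29 was the highest of the 33 members (edgeR, adjusted p = 0.128; DESeq2, adjusted p = 0.0900). Ccng2, a cyclin that slows the cell cycle, was at 34.04 and 43.4 CPM in control and 66.4 and 56.2 CPM in knockout libraries (0.66 ± 0.19; edgeR, adjusted p = 0.200). Cited2 lay on the other side. Its product competes with HIF for the coactivators CBP and EP300 and so limits the response. Cited2 stood at 52.6 and 77.1 CPM in control and 29.2 and 51.5 CPM in knockout libraries, with Usp28 KO replicate 2 just under control replicate 1. Its log2 fold change of -0.68 ± 0.27 was the lowest of the members and ran from -1.15 to -0.33 with a library left out.

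The metabolic members Hmox1, Vldlr and Gys1 had log2 fold changes of 0.40 ± 0.18, 0.62 ± 0.28 and 0.25 ± 0.30. Hmox1, the heme-degrading oxygenase, stood at 109 and 124.5 CPM in control and 133 and 176 CPM in knockout libraries, with no overlap. Hmox1 is also known as a target of the oxidative stress factor NRF2. Of 8 other NRF2 targets 7 were tested, with a median of -0.18. At an unadjusted edgeR p under 0.05, 0 were higher and 1 (Nqo1) lower, against 6.86% and 4.34% of all genes. What lies behind the Hmox1 values was not tested. Vldlr, a lipoprotein receptor gene, was at 7.37 and 10.5 CPM in control and 10.54 and 16.9 CPM in knockout libraries, so that control replicate 2 and Usp28 KO replicate 1 nearly met. Gys1, the muscle-type glycogen synthase, ranged from 61.4 to 91.5 CPM in control and from 62.5 to 120 CPM in knockout libraries. The groups overlapped, and the Gys1 value was -0.29 without Usp28 KO replicate 2, -0.0080 without control replicate 1 and 0.086 with the GC correction.

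Of the 4 remaining members, Fut11 and Tmem45a were on the lower side and Ppfia4 and Narf on the higher side. Fut11, a fucosyltransferase gene, stood at 14.8 and 12.6 CPM in control and 8.24 and 9.71 CPM in knockout libraries (-0.61 ± 0.23; edgeR, adjusted p = 0.344), with separate groups. Ppfia4, which encodes a liprin scaffold protein, stood at 36.4 and 30.5 CPM in control and 45.5 and 47.7 CPM in knockout libraries (0.48 ± 0.18, or 0.28 with the GC correction). Tmem45a, a membrane protein gene, was at 4.04 and 6.31 CPM in control and 2.73 and 4.27 CPM in knockout libraries, where the groups overlapped. Narf, whose product binds prelamin A, differed by 0.26 ± 0.17.

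**Figure D3:**
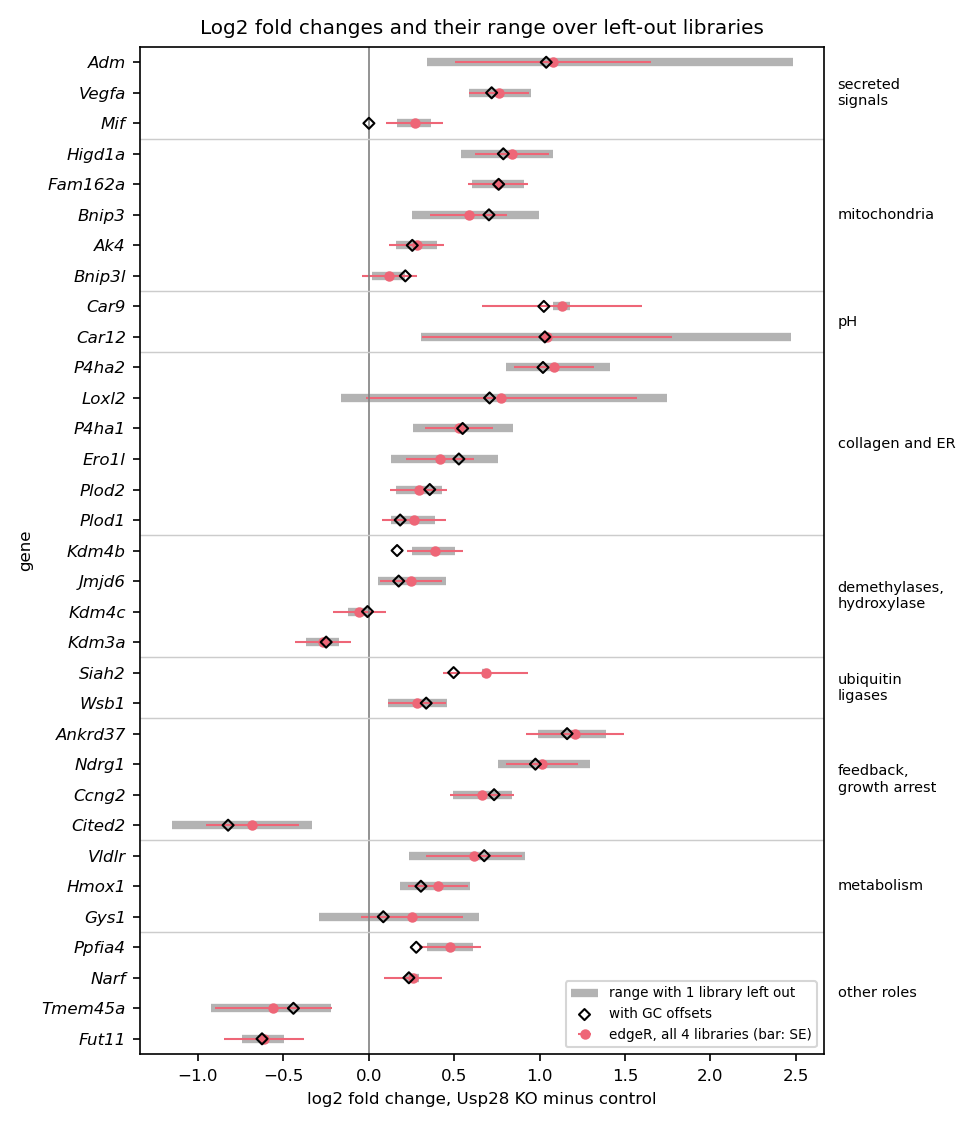
Log2 fold change (x axis, Usp28 KO minus control) of each tested member (y axis, by role). Red points with bars are the edgeR value and SE over all 4 libraries, grey bars the range when each library was left out in turn, and open diamonds the value with GC offsets. The grey bars of Adm, Car12 and Loxl2 are the widest, and those of Loxl2, Gys1 and, by a small margin, Kdm4c cross 0.

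Most members kept their sign under other treatments of the libraries. With GC offsets, 14 members were higher and 2 lower at an unadjusted p under 0.05, where 5.25% of all genes were higher and 6.06% lower, and the member median was 0.36. Between same-numbered libraries, 28 members were higher in Usp28 KO in both pairs, against 33.2% of all genes tested, and 4 were lower in both, against 32%. By construction these include the 22 members higher and 3 lower without overlap, so the counts are not independent of each other. The median difference was 0.49 for number 1 and 0.39 for number 2. Across the 33 members, which share libraries, log2 fold change and GC content had a Pearson r of 0.174. The sign was the same in all 4 fits with a library left out for 30 members. The exceptions were Kdm4c, Gys1 and Loxl2. The matching share of all genes was not computed, and these fits share most libraries with the main fit.

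Many members also differed between the libraries of a group. Replicate 2 was above replicate 1 for 25 of 33 members in control, where 52.1% of all genes tested had this order, and for 23 of 33 in Usp28 KO, where 49.3% had it. In 19 members (57.6%) it held in both groups, against 32.8% of all genes. Loxl2, Gys1, Car12 and Adm were among these. The labels give no batch, and what sets the libraries apart was not tested.

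Genes of the oxygen-sensing machinery were counted for comparison, and their median log2 fold change was -0.0078. At an unadjusted edgeR p under 0.05, 2 of 12 were higher and 1 lower, against 6.86% and 4.34% of all genes. With GC offsets, 2 were higher and 4 lower, against 5.25% and 6.06% of all genes. Epas1, Egln2 and Crebbp then joined Hif1a on the lower side. The hydroxylase genes Egln3 and Egln1, themselves HIF targets, had log2 fold changes of 0.64 ± 0.18 and 0.53 ± 0.17 (edgeR, adjusted p = 0.182 and 0.248). Egln3 stood at 66.6 and 86.6 CPM in control and 126 and 114 CPM in knockout libraries. The alpha subunit genes Hif1a and Epas1 were lower in each Usp28 KO library than in each control library, as were 20.4% of all genes tested. Their log2 fold changes were -0.50 ± 0.16 and -0.37 ± 0.19. Another alpha subunit gene, Hif3a, had overlapping groups and a log2 fold change of 0.23 ± 0.23. Vhl and Arnt differed by 0.26 ± 0.20 and 0.12 ± 0.17. These are transcript levels, and HIF is regulated chiefly as a protein, which was not measured.

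Of 21 glycolytic HIF targets, 12 were higher and 0 lower at an unadjusted edgeR p under 0.05, against 6.86% and 4.34% of all genes. Their median log2 fold change was 0.41. With GC offsets, 7 were higher and 0 lower, against 5.25% and 6.06% of all genes, and the median was 0.30. By DESeq2, 3 of them rose at an adjusted p under 0.05, against 0.578% of genes with an adjusted p. Eno2, Slc16a3, Pfkfb3 and Aldoc had the smallest p, with log2 fold changes of 1.37, 0.71, 0.84 and 0.67. Of 20 other HIF targets, 18 were tested and 6 were higher at the unadjusted threshold, against 6.86% of all genes, and the median was 0.34. That list shares Pfkfb3 and Pfkfb4 with the glycolytic list and Egln3 with the oxygen-sensing list. Ddit4, Bhlhe41 and Anxa2 had log2 fold changes of 1.32, 1.62 and 0.95.

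Paralogs of the members that were not on the list gave a median of 0.0061 over 31 tested of 40. Of these, 4 were higher and 0 lower at an unadjusted edgeR p under 0.05, against 6.86% and 4.34% of all genes. The 4 were Ndrg4, Cited4, Ndrg2 and Lrp8. Cited4 was under 1.3 CPM in every library. Their log2 fold changes were, in that order, 0.80 ± 0.18, 2.37 ± 0.68, 0.71 ± 0.21 and 0.51 ± 0.17. Ndrg4 passed DESeq2 (adjusted p = 0.0257), where 0.578% of genes with an adjusted p were higher. Ndrg3, of the same family, differed by -0.060 ± 0.18. Of the 31, 16 had log2 fold changes above 0 and 15 below. The paralogs named next were picked after their values were seen. Near 0, beside a member above 0, lay Vegfb at 0.041 ± 0.19, Plod3 at 0.094 ± 0.16, Siah1a at -0.066 ± 0.18 and Wsb2 at 0.0061 ± 0.16. Above 0, as their member was, lay Ero1lb at 0.60 ± 0.30, Loxl1 at 0.66 ± 0.47, Loxl3 at 0.61 ± 0.42 and Adm2 at 0.50 ± 0.51. Of 10 genes of the integrated stress response, 1 (Ddit3) was higher and 0 lower at that threshold, with a median of 0.058. With GC offsets 0 were higher and 1 lower, against 5.25% and 6.06% of all genes. Whether any of these lists differs from the members was not tested.

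**Figure D4:**
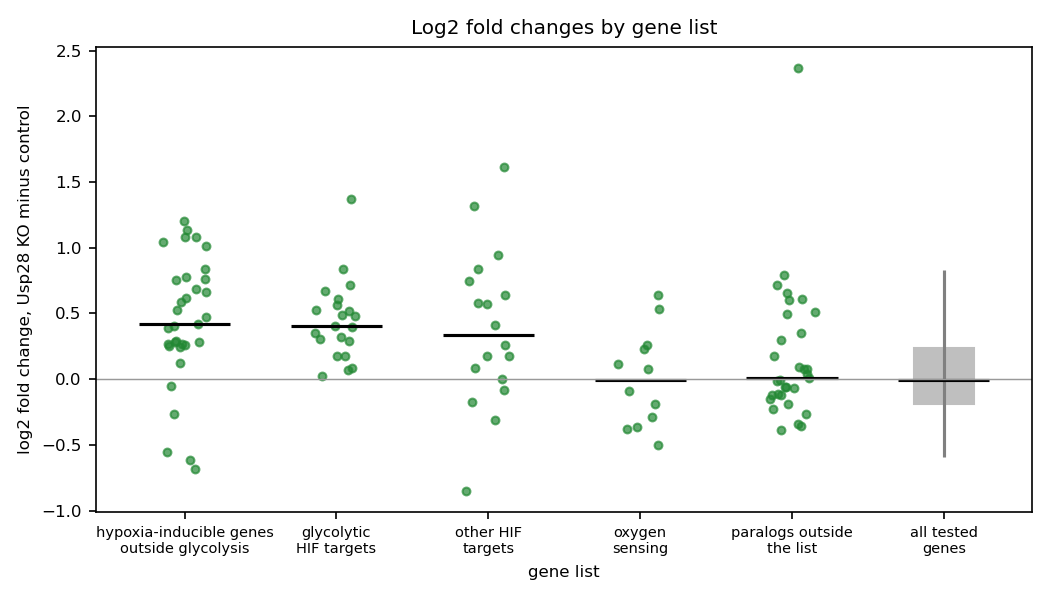
Log2 fold changes (y axis, Usp28 KO minus control, edgeR) of the tested genes of 5 lists (x axis), with a black line at each median, beside all 15341 tested genes shown as the 5th to 95th percentile (line), quartiles (box) and median. Medians are 0.42 for the hypoxia-inducible genes outside glycolysis, 0.41 and 0.34 for the other HIF target lists, and -0.0078 and 0.0061 for oxygen-sensing genes and paralogs.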

How the data were processed

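RNA-seq of polyadenylated RNA was done on 4 libraries. The authors deposited raw read counts per gene. The submitters' processing notes list HISAT2, featureCounts, DESeq2 and mm10 and give no version of them. Strand use in counting, and which annotation release was used, is not given in the sources used here, so reads of overlapping genes cannot be told apart: exons of 11 of the 34 members overlap another gene in GENCODE M21, Ndrg1, Bnip3, Ankrd37, Fam162a and Higd1a among them. Mif has processed pseudogenes, and its count is uncertain. Symbols came from GENCODE M21, in which 55141 of 55401 identifiers matched.

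Counts were analysed in R 4.3.3 with edgeR 4.0.16. The default filterByExpr (minimum count 10, minimum total 15) left 15341 genes. Libraries were scaled by TMM, and the 2 groups were compared by a robust quasi-likelihood test. P-values were adjusted over all genes by Benjamini-Hochberg, and 0.05 was the threshold. A ± after a log2 fold change is its SE. CPM values use the TMM-scaled library totals. Alternatives were DESeq2 1.42.0, limma-voom (limma 3.58.1), other scalings and filters, offsets for transcript GC content (natural spline, 5 degrees of freedom; known for 99.9% of tested genes), a replicate block and leaving out each library. The steps were tested on simulated data. Between same-numbered libraries, 0.05 CPM was added before the log2 ratio.

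The members and lists were chosen with earlier results of these data known. Every member was described by role, with values per library where the unadjusted p was under 0.05 or the mean at least 100 CPM, and for some others. Of other lists up to 4 genes with the smallest p were named, with Hif1a, Epas1, Egln1, Egln3, Vhl, Arnt and Usp28. Of the other HIF targets, 1 result is not reported here. Promoters were those of the 6 members with the smallest p and an entry, of which 4 had at least 60 bases outside exons.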

Additional observations from a re-analysis of the deposited data

How the results depend on the processing

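No member passed the edgeR test over all genes when library totals, upper-quartile or DESeq2 size factors set the scale, with the filter of 50 counts or with GC offsets, nor by limma-voom. Members called higher numbered 4 by DESeq2, 7 without a low-count filter, 18 with the replicate number as a block and 17 with that block and GC offsets, in place of 0. Members called lower numbered 1 without a filter, 2 with the block and 3 with the block and GC offsets. Leaving out each library gave 0 (without control replicate 1) to 8 (without control replicate 2) members called higher and 0 to 1 lower. Over all genes, in place of 0 each way, DESeq2 called 79 higher and 48 lower, upper-quartile scaling 18 and 3, library totals 24 and 5, no filter 204 and 118, the replicate block 965 and 716, and the block with GC offsets 853 and 1425. Leaving out each library gave 49 to 146 higher and 31 to 200 lower. The labels do not say that a number marks a shared batch; deviations of same-numbered libraries from their group means correlated at 0.354 across genes. With 2 pairs and no label on what a number marks, pairing was not established. The cause of these shifts in calls was not tested. The member median of 0.42 ran from 0.31 to 0.56 with a library left out and from 0.36 to 0.49 in the other settings. Signs turned for Kdm4c (range with a library left out -0.12 to 0.0024; 0.0039 with upper-quartile scaling, 0.0096 with library totals), Gys1 (-0.29 to 0.65 with a library left out, and -0.0080 without control replicate 1) and Loxl2 (-0.16 to 1.75); the other 30 members kept their sign in every setting. With 2 libraries per group, the depth of 16595196 to 19533608 counts gave 11 to 29 counts per library for Car9 and 0 to 4 for Lox.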

Other observations

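Receptors of the VEGF family and other vascular genes gave values outside the comparisons above. Flt1, a VEGF receptor gene, stood at 0.921 and 1.64 CPM in control and 2.35 and 2.93 CPM in knockout libraries (a log2 difference of 1.06 ± 0.42, edgeR adjusted p = 0.360). Tek, the angiopoietin receptor gene, was lower, at 4.45 and 4.79 CPM in control and 2.57 and 2.83 CPM in knockout libraries (-0.77 ± 0.31, edgeR adjusted p = 0.367). Neither passed the test. Kdr, the main VEGF receptor gene, was under 0.45 CPM in every library, and the endothelial cadherin gene Cdh5 was at 0 in 3 of the 4 libraries. Pecam1, which embryonic stem cells also express, differed by 0.086 ± 0.26.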
